A study of Mus musculus with 4 samples.

Results

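The genes studied here write, maintain or erase methylation of cytosine in DNA. They are 8 genes, Dnmt1, Dnmt3a, Dnmt3b, Tet1, Tet2, Tet3, Uhrf1 and Uhrf2, chosen by name. The rule that picks them uses no measured value, but the set was proposed with earlier results of these data known. Every feature of the array that the platform's annotation gives to one of these symbols was taken, which made 17 of 45018 features and 8 of the 19087 genes with a singly named feature. A single feature measured 3 of the genes (Dnmt1, Dnmt3b and Tet1), Uhrf1 had 2, and the other 4 had 3 each. A value on all 4 arrays was present for 16 of the 17 features. The remaining one, a Tet3 feature, was blank on array 4.

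RNA from mouse embryonic fibroblasts (MEFs, connective-tissue cells grown out of embryos) lacking Mll1 was co-hybridised with RNA from wild-type MEFs on 4 two-colour whole-genome expression arrays. The groups are Mll1-/- and Mll1+/+ (wt), both described as cell lines and grown in DMEM with serum. Neither the embryonic age nor the strain, the kind of mutation or the number of lines is given in the sources used here, so genotype and cell line cannot be told apart. Dyes were swapped: the Mll1-/- sample was labelled with Cy5 for arrays 1 and 3 and with Cy3 for the other 2. Mll1, now named Kmt2a, encodes a methyltransferase of histone H3 lysine 4 whose CXXC domain binds unmethylated CpG. The ratios are read as Mll1-/- over wild type, which is likely and not stated: the mutant comes first in the array titles, and Kmt2a itself is lower that way, at −1.61, −1.58, −1.01 and −0.78 on arrays 1 to 4. A single feature measured Kmt2a, and whether it lies in the deleted part is not known here. If the ratios run the other way, each rise and fall below changes places. Nothing in the labels says that the arrays hold separate cultures, so the p-values rest on a spread that may be purely technical.

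DNA methylation at CpG sites is laid down by the de novo methyltransferases Dnmt3a and Dnmt3b and copied to the new strand after replication by Dnmt1, which Uhrf1 brings to hemimethylated DNA. The Tet enzymes oxidise 5-methylcytosine to 5-hydroxymethylcytosine and beyond, a route by which methylation is lost. In fibroblasts and other somatic cells this machinery keeps many germline promoters and imprinted alleles silent.

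The 8 genes did not move as a block. Tet2, Tet1, Dnmt3b and Uhrf1 fell, Dnmt3a rose, and Dnmt1, Uhrf2 and Tet3 did not pass the test (limma, with a dye term per gene and adjustment by Benjamini and Hochberg over 14222 genes, threshold 0.05). That is 4 genes lower and 1 higher of 8, in a data set in which 59.2% of all genes tested passed, 30.1% lower and 29.1% higher. A share of this size called is thus near the background and is no finding about these genes. The differences were mostly small: the median absolute log2 ratio was 0.44 over the 8 genes and 0.34 over all genes tested, and a change of at least 2-fold was reached by Tet2 alone. Signed medians were −0.38 for the 8 genes and −0.0007 for all genes. In all, 5 of the 8 kept one sign on all 4 arrays, as did 66.5% of all genes tested. The calls of Tet2, Uhrf1 and Dnmt3a were kept whichever array was left out. Those of Dnmt3b and Tet1 were not, so that 2 genes were called lower without array 1, 2 or 3. Signal over background could not be judged without channel intensities, and precision is limited by there being 4 arrays.

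**Figure D1:**
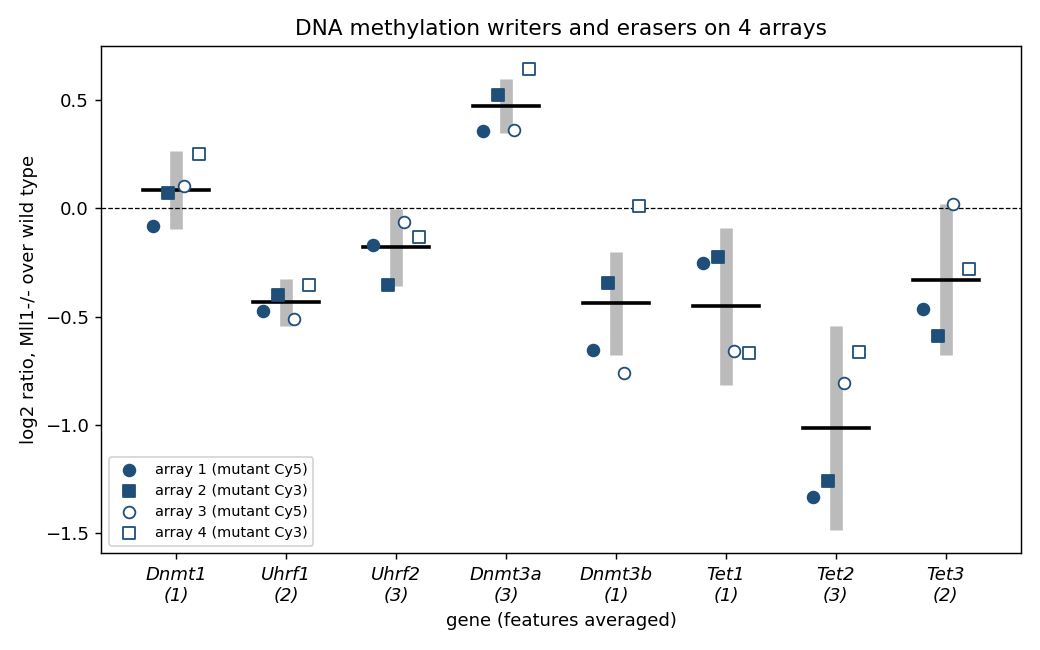
Log2 ratio of Mll1-/- over wild-type MEFs (vertical axis) for each of the 8 genes, as the mean of the gene's features on each array. Circles are arrays with the mutant in Cy5 and squares arrays with it in Cy3, filled for arrays 1 and 2 and open for arrays 3 and 4, with black lines for means and grey bars for limma's moderated 95% intervals. Tet2 lies lowest on every array except array 4, where Tet1 is level with it, and Dnmt3a lies highest on every array.

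Maintenance of methylation was represented by Dnmt1, Uhrf1 and Uhrf2. Uhrf1, which recognises hemimethylated CpG and recruits Dnmt1, stood at −0.47, −0.40, −0.51 and −0.35 on arrays 1 to 4. All 4 arrays were below 0 and close together. The mean log2 ratio was −0.43 ± 0.07 (SD, n = 4), a 1.35-fold fall (limma adjusted p = 0.00366). Its 2 features gave −0.41 ± 0.10 and −0.46 ± 0.05, and each was called lower by itself. It was the tightest of the 8 genes, with an SD of 0.07 against a median SD of 0.17 over all genes.

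Dnmt1, the maintenance methyltransferase that Uhrf1 serves, was measured by 1 feature and read −0.08, 0.07, 0.10 and 0.25. The arrays lay on both sides of 0. Its mean was 0.09 ± 0.14 (SD, n = 4; limma adjusted p = 0.303), with a moderated 95% interval from −0.10 to 0.27. These bounds correspond to 0.94 and 1.20 times the wild-type level. With 1 array left out the mean ran from 0.04 to 0.13 and was never called. Within each array Dnmt1 was above Uhrf1, by 0.39, 0.47, 0.61 and 0.60 log2 units, a mean difference of 0.52 ± 0.11. All 4 differences had one sign. In an exact two-sided sign-flip permutation test, a mean as large came from 2 of the 16 sign patterns, the fewest that 4 arrays allow, so the test cannot reach 0.05. In all, 5 such differences were computed.

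Uhrf2, a paralogue of Uhrf1 known not to replace it in maintenance, had ratios of −0.17, −0.35, −0.06 and −0.13. The mean of −0.18 ± 0.12 did not pass (limma adjusted p = 0.0733). Its 3 features were uneven: −0.19 ± 0.21 for feature 6394, which was called lower by itself (adjusted p = 0.0400), −0.06 ± 0.09 for feature 23173 and −0.30 ± 0.29 for feature 35288, named by a cDNA clone. Feature 35288 read −0.49 and −0.60 on arrays 1 and 2 and −0.07 and −0.02 on arrays 3 and 4.

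The promoter windows of Uhrf1 are shown because it was the maintenance gene that changed. RefSeq's table for GRCm38.p6 holds 2 start sites for it, and the 250 bases before each are printed 5′ to 3′ with every CpG in capitals, the dinucleotide that Uhrf1 and Dnmt1 act on.
Uhrf1 upstream start, chr17:56303087-56303336, plus strand: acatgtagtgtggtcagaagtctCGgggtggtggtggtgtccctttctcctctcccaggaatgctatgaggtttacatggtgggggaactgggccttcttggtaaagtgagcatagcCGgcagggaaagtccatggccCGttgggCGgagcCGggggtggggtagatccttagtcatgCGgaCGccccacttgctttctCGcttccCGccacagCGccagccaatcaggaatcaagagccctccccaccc
Uhrf1 downstream start, chr17:56304063-56304312, plus strand: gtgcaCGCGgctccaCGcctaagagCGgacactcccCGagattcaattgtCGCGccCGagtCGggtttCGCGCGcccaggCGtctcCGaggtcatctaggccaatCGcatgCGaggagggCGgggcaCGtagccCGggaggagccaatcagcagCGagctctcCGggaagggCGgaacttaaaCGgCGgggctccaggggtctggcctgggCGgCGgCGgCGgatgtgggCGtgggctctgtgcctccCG
The upstream window holds 10 CpGs and the downstream one 30, against a median of 6 over the 32851 windows of the table. Which start the fibroblasts use cannot be read from the array.

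The de novo methyltransferases moved apart. Dnmt3a stood at 0.36, 0.53, 0.36 and 0.64, above 0 on all arrays, with a mean of 0.47 ± 0.14 (SD, n = 4), a 1.39-fold rise (limma adjusted p = 0.00397). Dnmt3b read −0.66, −0.34, −0.76 and 0.01, which gives −0.44 ± 0.35, a 1.35-fold fall (adjusted p = 0.0189). Arrays 1 to 3 were below 0 and array 4 was at it. The arrays of the 2 genes did not overlap, and Dnmt3a exceeded Dnmt3b by 1.01, 0.87, 1.12 and 0.63 within arrays, a mean of 0.91 ± 0.21 or 1.88-fold (2 of 16 sign patterns in the exact test).

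The ratio of Dnmt3b went with the dye. With the mutant in Cy5 it averaged −0.71 and with the mutant in Cy3 −0.17 (dye term, limma unadjusted p = 0.0354, adjusted p = 0.322). It was the only one of the 8 genes with an unadjusted dye p under 0.05, against 14.8% of all genes, and its SD of 0.35 was the widest. The fitted call leans on the dye term: without it the adjusted p was 0.0542 at the same mean. With array pairs 1+2 and 3+4 as a random block, a fit that has no dye term either, it was 0.0487 and just passed. The call was also lost without array 1, 2 or 3, at log2 ratios of −0.46, −0.35 and −0.41 (adjusted p up to 0.0809), and kept without array 4, at −0.53.

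Dnmt3a was measured by 3 features, all named by the same RefSeq transcript, and they rose by unequal amounts. Feature 13003 gave 0.79, 0.83, 0.78 and 0.90, a mean of 0.82 ± 0.05 or 1.77-fold (limma adjusted p = 0.00140 over 24012 features). Feature 11358 averaged 0.29 ± 0.26 and was at −0.00 on array 1, and feature 36271 averaged 0.30 ± 0.14. Both were called higher as well (adjusted p = 0.0421 and 0.0139). Feature 13003 was above the mean of the others by 0.66, 0.45, 0.63 and 0.38 within arrays, 0.53 ± 0.13 on average (2 of 16 sign patterns in the exact test, for a difference chosen after the values were seen). The size of the rise differed by feature, from 1.22-fold to 1.77-fold, and with the median of the 3 features in place of the mean it was 0.37 (adjusted p = 0.0120). Of the 16 features of the 8 genes that were tested, 3 were called higher and 9 lower, where 59.6% of all features tested were called, 29.9% higher and 29.7% lower.

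**Figure D2:**
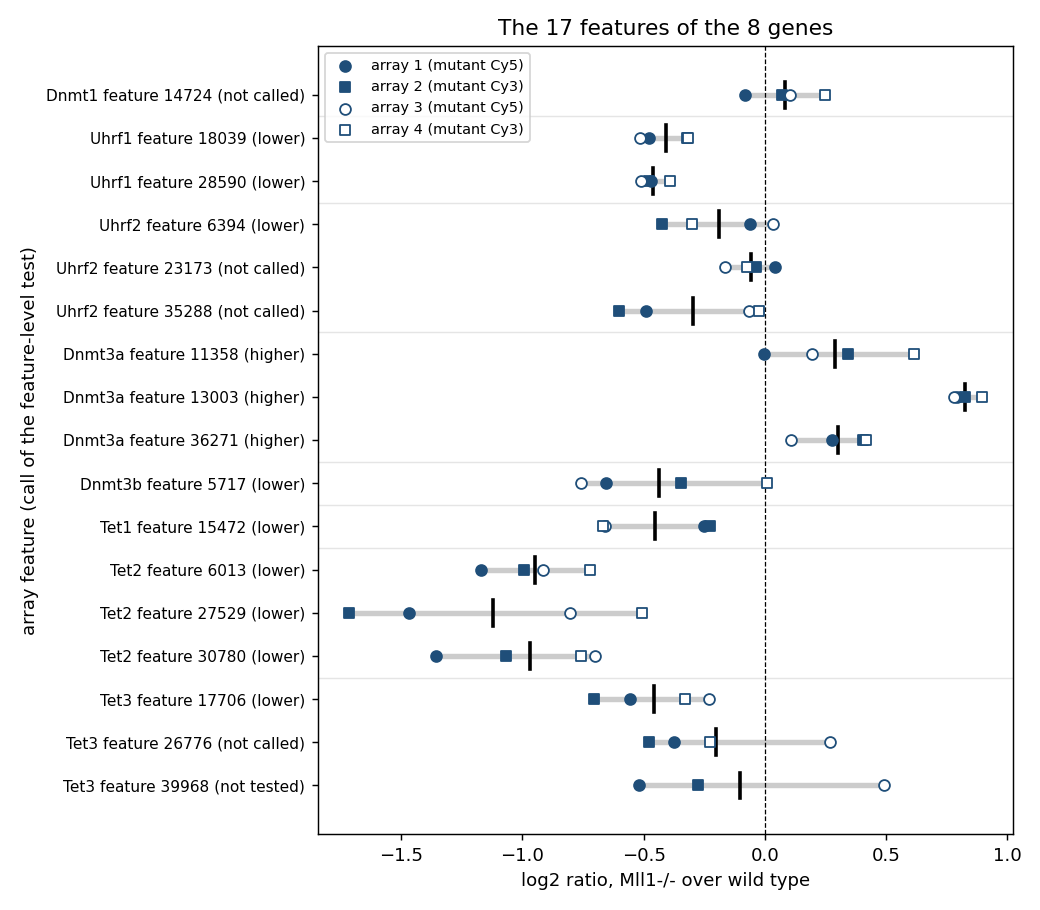
Log2 ratio of Mll1-/- over wild type (horizontal axis) for each of the 17 features, 1 row per feature with its number and the call of the feature-level test, and 1 point per array (symbols as for the genes). Black ticks are means and grey lines the range over arrays; the 3 Tet2 features lie below 0 on all arrays, and Dnmt3a feature 13003 lies apart from the other Dnmt3a features.

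Dnmt3a is known to be transcribed from more than one promoter, the inner one giving a shorter protein. RefSeq's table holds 3 start sites, 2 of them with overlapping windows, and the outer and the inner window are shown because the array features of this gene disagree in size. Capitals mark CpG.
Dnmt3a outer start, chr12:3806730-3806979, plus strand: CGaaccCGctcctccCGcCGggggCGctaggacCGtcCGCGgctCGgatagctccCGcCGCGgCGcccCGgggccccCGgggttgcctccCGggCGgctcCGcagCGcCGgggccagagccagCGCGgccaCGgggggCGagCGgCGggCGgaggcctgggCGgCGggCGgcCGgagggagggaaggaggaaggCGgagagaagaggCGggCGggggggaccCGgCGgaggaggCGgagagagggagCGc
Dnmt3a inner start, chr12:3891494-3891743, plus strand: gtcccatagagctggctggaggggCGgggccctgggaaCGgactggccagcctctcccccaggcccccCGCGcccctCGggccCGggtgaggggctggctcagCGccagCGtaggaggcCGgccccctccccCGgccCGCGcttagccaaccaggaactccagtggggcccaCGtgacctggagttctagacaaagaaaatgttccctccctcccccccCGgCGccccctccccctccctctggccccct
The outer window holds 38 CpGs, a number reached by 1.88% of all windows, and the inner one 15, reached by 27.3%. The positions of the array probes within the gene were not used here, so no feature can be assigned to either transcript.

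The Tet enzymes were all on the lower side on average. Tet2, the family member without a CXXC domain of its own, was the most changed of the 8 genes, at −1.33, −1.26, −0.80 and −0.66. All arrays were well below 0. The mean was −1.01 ± 0.33 (SD, n = 4), a 2.02-fold fall (limma adjusted p = 0.0132), with a moderated 95% interval from −1.48 to −0.54. Its absolute ratio was larger than that of 85.3% of the genes tested, and falls of at least 2-fold were called for 8.06% of all genes (rises of that size for 6.3%). The 3 features fell alike on average, by 0.95 for feature 6013, by 0.97 for feature 30780 and by 1.12 for feature 27529, and each was called lower by itself (adjusted p = 0.00359, 0.0117 and 0.0351). Their spreads differed, with SDs of 0.19, 0.30 and 0.56. Left-out arrays moved the mean between −1.16 and −0.87 with adjusted p-values from 0.0282 to 0.0457.

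Tet2 went with the array pairs. Arrays 1 and 2 averaged −1.29 and arrays 3 and 4 −0.73. Feature 27529, named by a cDNA clone, showed it most, with −1.47 and −1.71 against −0.80 and −0.51. Kmt2a had the same order, at −1.59 on the first pair and −0.89 on the second. The labels do not say whether these pairs share an RNA extract, and the part of the pairs in the result was not tested.

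Tet1, best known from embryonic stem cells and the germline, had 1 feature, named by a cDNA clone, and read −0.25, −0.22, −0.66 and −0.67. All arrays were below 0, in pairs of the opposite order to Tet2, with −0.24 on arrays 1 and 2 and −0.66 on arrays 3 and 4. The mean was −0.45 ± 0.25, a 1.37-fold fall that only just passed (limma adjusted p = 0.0473). The call was lost without any one array, at ratios from −0.56 without array 2 to −0.34 without array 4 (adjusted p from 0.0622 to 0.139), and when each array pair (1 with 2, 3 with 4) was reduced to its mean (adjusted p = 0.0935).

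Tet3, the Tet enzyme of the oocyte and of many somatic tissues, averaged −0.33 ± 0.27 over its 2 complete features, with −0.47, −0.59, 0.02 and −0.28 (limma adjusted p = 0.0879). Array 3 was at 0 and the others below it. With 1 array left out the mean ran from −0.45 without array 3 to −0.21 without array 1, and it was not called in any of these fits. Feature 17706 was below 0 on all arrays, at −0.46 ± 0.21, and was called lower by itself (adjusted p = 0.0306). Feature 26776, named by a cDNA clone, averaged −0.20 ± 0.33 and was not called (adjusted p = 0.281). The feature with the blank read −0.52, −0.27 and 0.49 on arrays 1 to 3 and was not tested. The same transcript names feature 17706 and this one, and on array 3 they read −0.23 and 0.49.

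The Tet genes did not fall equally on every array. Tet3 lay above Tet2 by 0.87, 0.67, 0.82 and 0.38, a mean of 0.69 ± 0.22 (2 of 16 sign patterns in the exact test). Tet1 lay above Tet2 by 1.08 and 1.03 on arrays 1 and 2, by 0.15 on array 3 and by −0.01 on array 4 (mean 0.56 ± 0.57, 4 of 16 sign patterns). The difference between Tet1 and Tet2 thus rests on arrays 1 and 2.

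The promoter window of Tet2 is shown because it was the gene with the largest change of the 8. It is taken from the same RefSeq table and again has CpG in capitals.
Tet2, chr3:133544391-133544640, minus strand: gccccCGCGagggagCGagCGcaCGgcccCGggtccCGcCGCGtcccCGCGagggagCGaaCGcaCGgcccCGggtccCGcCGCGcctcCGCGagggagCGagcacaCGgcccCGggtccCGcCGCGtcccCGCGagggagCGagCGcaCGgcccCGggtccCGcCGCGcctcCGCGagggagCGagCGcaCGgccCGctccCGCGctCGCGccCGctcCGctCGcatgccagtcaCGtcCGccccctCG
It holds 51 CpGs in 250 bases, a number that 0.067% of all windows reach. The other 2 Tet genes have 15 (Tet1) and 17 (Tet3), the Dnmt3b window has 21, and the Uhrf2 window 23. The GC-box letters GGGCGG, searched on both strands, were found in 11 of the 13 windows of the 8 genes and in 32.7% of all windows. GGGCGG itself contains a CpG, and the median over all windows was 6 CpGs. The windows of the 8 genes without it were the Dnmt1 windows with 7 and 2 CpGs. Windows of like CpG content were not compared. The E2F-type letters TTTGGCGC and TTTCCCGC, likewise searched on both strands, were in 0 of the 13, and in 0.417% and 0.895% of all windows. At such low shares, 0 of 13 says little. Other E2F-type forms were not searched, and the form TTTCGCGC is present, for example, in the Uhrf1 downstream window printed above. These are letters in a window and not sites.

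Chromosomes differed in their median log2 ratio, from −0.70 on chromosome 14 to 0.29 on chromosome 16, so each gene was set beside its surroundings. Tet2, on chromosome 3, fell while its chromosome's median was 0.20 and that of its 10 neighbouring tested genes 0.16. Neighbours were the 5 tested genes on each side. Dnmt3a, on chromosome 12, rose against a chromosome median of 0.01 and a neighbour median of −0.10. Uhrf1, on chromosome 17, lay below a chromosome median of −0.11 and a neighbour median of −0.24, with 7 of its 10 neighbours called lower too. Relative to its chromosome it was at −0.33 and kept its call (limma adjusted p = 0.00683).

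For other genes the surroundings changed the reading. Dnmt1 lies on chromosome 9, whose median was 0.23, and relative to that it turned to −0.14, again without passing (limma adjusted p = 0.1246). Uhrf2 lies on chromosome 19, with a median of 0.16, and relative to that it was −0.35 and passed (adjusted p = 0.0217), although its 10 neighbours had a median of −0.21. Tet1, on chromosome 10 with a median of −0.16, was −0.28 and lost its call (adjusted p = 0.117). Tet3, on chromosome 6 with a median of −0.16, moved from −0.33 to −0.16. Dnmt3b, on chromosome 2 with a median of −0.03, was −0.42 and kept its call (adjusted p = 0.0244). The part of chromosome-wide shifts in the members' ratios was not tested further.

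**Figure D3:**
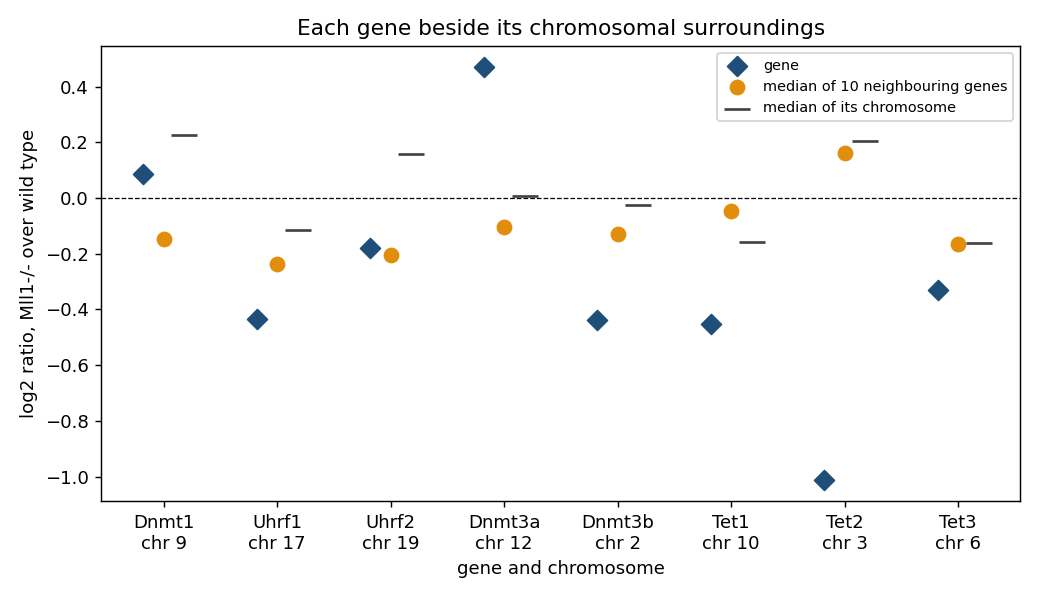
Log2 ratio of Mll1-/- over wild type (vertical axis, mean of 4 arrays) for each of the 8 genes (diamonds), the median of its 10 neighbouring tested genes (circles) and the median of its chromosome (bars). Tet2 and Dnmt3a lie farthest from their surroundings, at −1.01 against 0.16 and 0.47 against −0.10 for the neighbours.

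Genes that work with these enzymes were described from lists, beside 29.1% higher and 30.1% lower over all genes tested. Of 10 methyl-CpG readers, 8 were tested, of which 3 rose and 2 fell, with a median of 0.09. Zbtb38, a zinc-finger protein that binds methylated CpG, rose 3.03-fold (1.600 ± 0.25, SD over 4 arrays as for all errors that follow; limma adjusted p = 0.00196). Its relative Zbtb4 fell 1.35-fold (−0.44 ± 0.11). Mbd4, a reader that is also a thymine glycosylase, fell 1.74-fold (−0.80 ± 0.37), with −0.29 on array 4 and −0.78 or lower on the others, and its call was lost without array 1 or 3 (highest adjusted p = 0.0842). Mbd2, which recruits the NuRD corepressor, rose 1.23-fold (0.30 ± 0.14), a call lost without array 1, 2 or 3 (highest adjusted p = 0.132), with either pairing of the arrays averaged (1 with 2 and 3 with 4, or 1 with 4 and 2 with 3; 0.0811 and 0.0577) and for 1 of its features by itself (0.13, adjusted p = 0.282). The count of readers that rose was 1 without array 1, 2 or 3, and that of readers that fell 1 without array 1 or 3.

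Among 13 partners and regulators of the enzymes, 10 were tested, with 3 rises, 1 fall and a median of 0.01. Hells, the chromatin remodeller Lsh that is needed for methylation of repeats, rose 1.62-fold and very evenly, at 0.65, 0.70, 0.69 and 0.74 (0.70 ± 0.04, limma adjusted p = 0.00165). Usp7, a deubiquitinase that binds Dnmt1 and Uhrf1, rose 1.69-fold (0.76 ± 0.27), at 0.55 and 0.51 on arrays 1 and 2 and 1.01 and 0.96 on arrays 3 and 4. Trim28, the corepressor that brings methylation to imprinted loci and retroelements, rose 1.29-fold (0.37 ± 0.06). Dnmt3l, the catalytically inactive cofactor of Dnmt3a and Dnmt3b, fell by 0.999 ± 0.36 on the log2 scale, at −0.64 and −0.73 on arrays 1 and 2 and −1.33 and −1.29 on arrays 3 and 4. Usp7 lost its call without array 3 or 4 (adjusted p = 0.0530 and 0.0566), for 1 of its features by itself (0.75, adjusted p = 0.0555) and relative to the median of chromosome 16, on which it lies (0.47, adjusted p = 0.0752). Calls were also lost without array 1 or 2 for Trim28 (highest adjusted p = 0.0516) and without array 4 for Dnmt3l (0.0602).

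Factors of base excision and active demethylation split evenly, with 5 higher and 5 lower of 13 tested (15 listed) and a median of 0.02. The falls include the cytidine deaminases Apobec3, 17.5-fold lower (−4.13 ± 0.65), and Apobec1, 3.18-fold lower (−1.67 ± 0.27), which are known for acting on viral DNA and on messenger RNA. Apobec3 is also known to differ in level between inbred mouse strains. Apex1, the abasic-site endonuclease, fell 1.66-fold (−0.73 ± 0.07), and stood at −0.03 relative to the median of chromosome 14, on which it lies (limma adjusted p = 0.536). The rises were smaller: Gadd45g, a stress-induced protein linked to demethylation, by 0.58 ± 0.17, Neil1, a glycosylase, by 0.50 ± 0.12, and Gadd45b by 0.31 ± 0.07 (log2). Gadd45b lost its call without array 1, 2 or 4 (highest adjusted p = 0.0772), and also when array pairs 1+2 and 3+4 were reduced to their means (0.0662). Tdg, the glycosylase that removes the products of Tet, was at −0.16 ± 0.06 (adjusted p = 0.0536). With 1 array left out, 2 or 3 genes of the list rose, and 3 fell without array 1 or 2.

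The methyl donor cycle, which supplies S-adenosylmethionine to the methyltransferases, showed 2 rises and 3 falls among 12 tested of 14, with a median of 0.04. Nnmt, which consumes S-adenosylmethionine to methylate nicotinamide, fell 2.27-fold (−1.18 ± 0.08, limma adjusted p = 0.00119). Ahcy, which removes the methyltransferase inhibitor S-adenosylhomocysteine, was at −0.00 ± 0.18. The other calls were small and did not hold without every array: Mthfd1 (0.43 ± 0.20) was lost without array 1 (adjusted p = 0.0594), Mtr (0.23 ± 0.11) and Mat2b (−0.30 ± 0.10) without any one array (highest adjusted p = 0.0954 and 0.0610), and Ahcyl2 (−0.26 ± 0.12) without array 1, 3 or 4 (0.149). When array pairs 1+2 and 3+4 were reduced to their means, Mtr, Mat2b and Ahcyl2 lost theirs too (adjusted p = 0.0966, 0.0623 and 0.0957). Ahcyl2 was at −0.09 relative to its chromosome (adjusted p = 0.341), and its call was lost in 7 settings other than a left-out array (adjusted p from 0.0635 to 0.416).

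The cosubstrate of the Tet enzymes is 2-oxoglutarate. Genes of its metabolism were listed together with succinate dehydrogenase (Sdh) and fumarase genes, which do not act on it directly. Of 13 tested of the 15 listed, 4 rose and 3 fell, with a median of 0.04. Idh3a, a subunit of the NAD-dependent isocitrate dehydrogenase, rose 2.06-fold (1.04 ± 0.25). The cytosolic isocitrate dehydrogenase Idh1 fell 2.05-fold (−1.04 ± 0.17) and the glutamate dehydrogenase Glud1 fell 2.07-fold (−1.05 ± 0.21), the latter on chromosome 14 with its median of −0.70. Sdhd (0.55 ± 0.22) and Ogdh (0.45 ± 0.11) rose, and Sdhc (−0.24 ± 0.21) fell in a call lost without any one array (highest adjusted p = 0.143). The Sdhc call was also lost in 4 other settings (highest adjusted p = 0.114). These were no dye term, array pairs 1+2 and 3+4 averaged, the same pairs blocked without a dye term, and relative to its chromosome. Idh2, the mitochondrial form, was at −0.08 ± 0.08.

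Germline genes known to be silenced by promoter methylation in somatic cells could mostly not be tested. Of 20 listed, 18 had a singly named feature and 5 a value on all arrays. Of these 5, 4 fell, and the other, Tex101, was at −0.68 ± 0.75 (limma adjusted p = 0.0766), which is also the median. Rhox5, an X-linked homeobox gene silenced by methylation, fell 5.13-fold (−2.36 ± 0.40), at −2.11, −1.94, −2.78 and −2.61. Taf7l, a germ-cell TFIID subunit, fell 3.74-fold (−1.90 ± 0.77), with −2.95 on array 2, and lost its call without array 1 (limma adjusted p = 0.0664), when 2 of the 5 genes were called. A single one of its features was not called by itself, at −1.52 (adjusted p = 0.0546). Dpep3 fell 1.38-fold (−0.47 ± 0.17). Ddx4, the germ-cell helicase, had a blank on array 3 and read 1.57, 3.56 and 0.48 on arrays 1, 2 and 4, and is named here after its values were seen, because it went the other way. Other genes with blanks, picked likewise, lay on both sides of 0. Dazl feature 11954 read 3.35 and 0.31 on arrays 2 and 4, and Sycp1 read 2.13 on array 4. Asz1 read −2.70 on array 3, and Mael −2.08, 0.07 and −2.70 on arrays 2, 3 and 4. The 5 tested genes therefore do not stand for the whole list.

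Genes of S phase, with which Dnmt1 and Uhrf1 are known to be expressed, went both ways. All 20 were tested, and 9 rose and 6 fell, with a median of 0.08. Mki67, the proliferation marker, rose 1.61-fold (0.68 ± 0.29), the cyclin genes Ccna2 (0.42 ± 0.16) and Ccne1 (0.42 ± 0.09) rose 1.34-fold each, and Gins1 (−0.51 ± 0.10) and Mcm6 (−0.46 ± 0.22), both of the replicative helicase, fell 1.42-fold and 1.38-fold. Pcna, the sliding clamp that Dnmt1 and Uhrf1 work beside, fell 1.34-fold (−0.43 ± 0.43), but as −0.01 and −0.11 with the mutant in Cy5 and −0.73 and −0.86 with it in Cy3. Its call was lost without the dye term (limma adjusted p = 0.0969). It was also lost with array pairs 1+2 and 3+4 as a block (0.0879), a fit that has no dye term either. Mki67 lost its call when array 3 or 4 was left out (adjusted p up to 0.0746), when array pairs 1+2 and 3+4 were averaged (0.0548) and relative to its chromosome (0.53, adjusted p = 0.0642). Ccne1 lost its call when array 2 was left out (adjusted p = 0.0521). With array 1, 2, 3 or 4 left out, the list held 4, 3, 5 or 4 rises, and 3 falls without array 1 or 2. The list thus lay on both sides of 0, with Dnmt1 (0.09) near its median and Uhrf1 (−0.43) among its lower values.

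**Figure D4:**
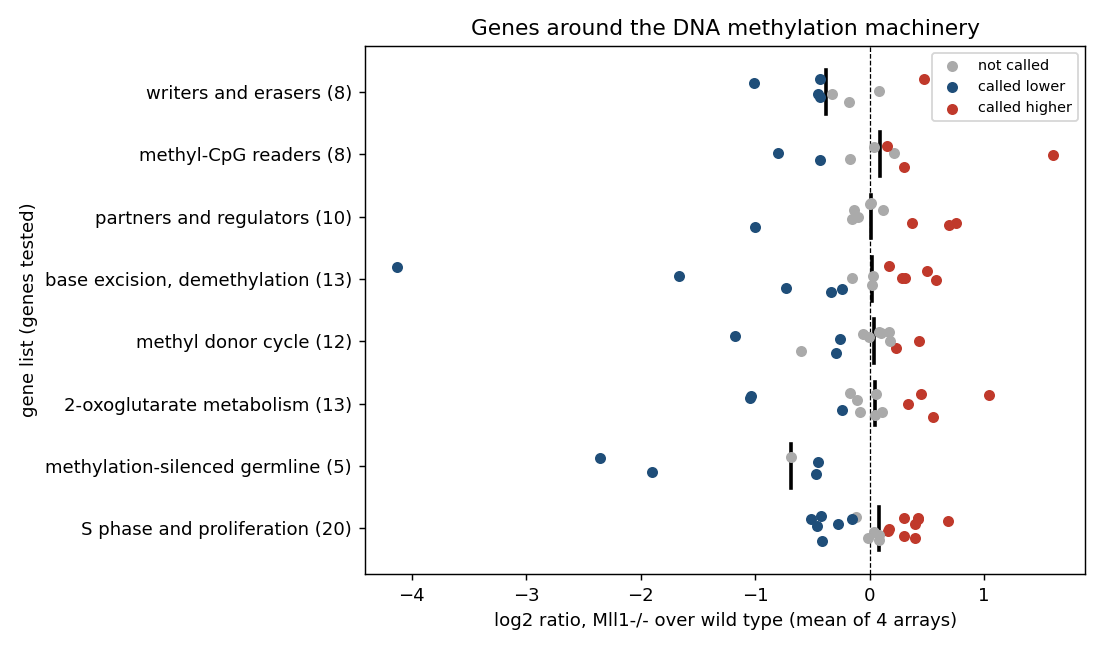
Log2 ratio of Mll1-/- over wild type (horizontal axis, mean of 4 arrays) for the 8 writers and erasers and for 7 lists of related genes, 1 point per gene tested, coloured by limma's call, with black lines at list medians. Apart from the 5 tested germline genes (median −0.68), the lists of related genes have medians between 0.01 and 0.09.

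Markers of cell identity changed beside these genes. Of 11 fibroblast markers 10 were tested, 5 higher and 4 lower, between −2.21 for Dcn and 2.27 for Col3a1, so fibroblast genes differed in both directions. Without array 4, 2 were lower. Among 13 markers of pluripotent and germ cells, in which Tet1, Dnmt3b and Dnmt3l are known to be high, 7 were tested and 1 was called, Dppa5a at 2.09 ± 0.33, and Pou5f1 (0.25 ± 0.51) and Nanog (−0.30 ± 1.13) lay on both sides of 0. Without array 1 or 4 there were 2 calls. Among 10 macrophage and blood markers 4 were tested, with Lyz2 higher (2.27 ± 0.32) and Cd14 (−3.78 ± 0.12) and Hba-a1 (−1.61 ± 0.24) lower, and 2 were higher without array 4. A ratio gives no level, so whether such cells were present cannot be read from it, and the part of these markers in the ratios of the 8 genes was not tested.

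**Figure D5:**
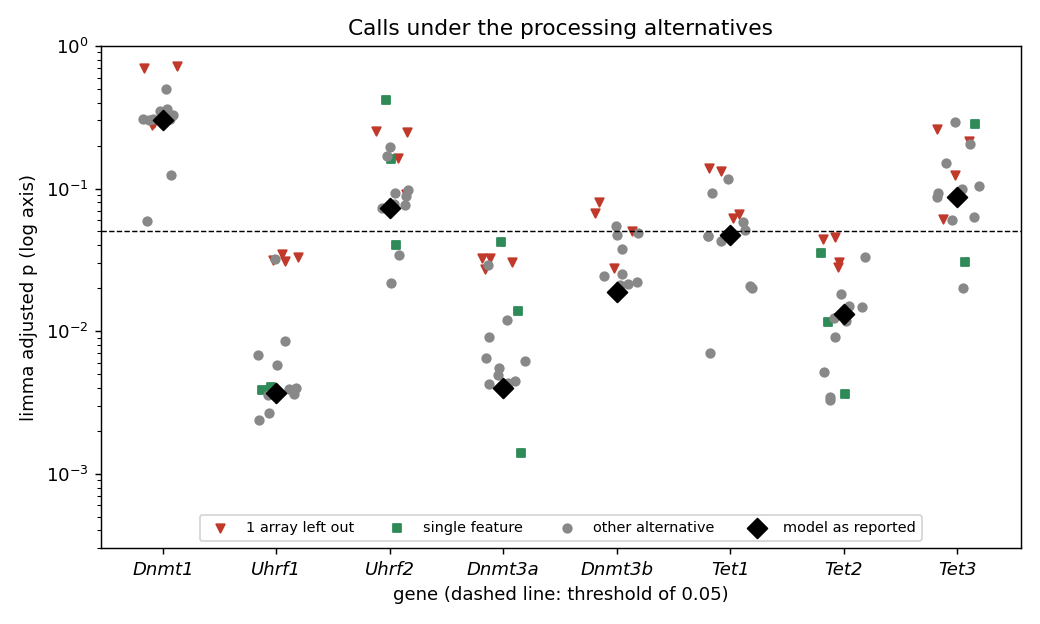
Limma adjusted p (vertical log axis) of each of the 8 genes as reported (diamonds), with 1 array left out (triangles), for single features (squares) and in the other alternatives (circles), with the threshold of 0.05 dashed. All points of Uhrf1, Dnmt3a and Tet2 lie below the line, and those of Dnmt3b and Tet1 lie on both sides of it.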

How the data were processed

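Both RNAs of each comparison were dye-labelled and put on Agilent mouse expression arrays, per the labels' protocols. Signals were extracted with Agilent Feature Extraction 10.1.1, per the submitters' processing notes. The authors deposited 1 value per feature and array, treated here as the log2 ratio of the channels. The base was judged from the widest values. How background and dyes were corrected, which way the ratio runs and what a blank means is not given in the sources used here. The columns correlated positively between dye orientations (r from 0.72 to 0.78 over 29054 features), so they had been turned one way. Array medians ran from −0.02 to 0.03.

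Gene names came from the platform annotation, with symbols updated through a RefSeq gene table of GRCm38.p6 (33517 of 33653 singly named features matched). Features of a gene with a value on all arrays were averaged, and 14222 genes were tested with limma 3.58.1 in R 4.3.3 (genotype and dye terms, 2 residual degrees of freedom, Benjamini-Hochberg over all genes, threshold 0.05). The same model was run on 24012 features. It was tested on simulated data. Errors are SDs over the 4 arrays. Named genes are the 8 genes, Kmt2a, and in each list up to 3 called genes each way with one sign on all arrays, largest first. Others are named as uncalled, marker or counterexample genes or as genes with blanks. The 8 genes (by name), the lists and the tests were chosen with earlier results of these data known. Promoter windows are the 250 bases before RefSeq start sites. Alternatives were the dye term, feature requirement and summary, centring, scaling, variance prior, array pairs, each array left out and, added after seeing the data, ratios relative to the chromosome median. The fits with array pairs averaged, each pair holding both dye orientations, and the random block fit had no dye term.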

Additional observations from a re-analysis of the deposited data

How the results depend on the processing

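Uhrf1, Dnmt3a and Tet2 kept their direction and call in every alternative run, with adjusted p-values up to 0.0347, 0.0421 and 0.0457, and log2 ratios from −0.46 to −0.33, from 0.29 to 0.82 and from −1.21 to −0.87. Dnmt3b was past the threshold except when the dye term was dropped (−0.44, adjusted p = 0.0542) and when array 1, 2 or 3 was, its ratios with 1 array left out running from −0.53 to −0.35. Tet1 lost the call with features on at least 3 arrays, with a robust variance prior and with array pairs 1+2 and 3+4 reduced to their means (−0.45 in each, adjusted p = 0.0587, 0.0511 and 0.0935), relative to its chromosome (−0.28) and without each array (−0.56 to −0.34). Uhrf2 gained a call with array pairs 1+4 and 2+3 reduced to their means (−0.18, adjusted p = 0.0342), relative to its chromosome (−0.35) and for feature 6394 by itself (−0.19), and Tet3 with those array pairs averaged (−0.33, adjusted p = 0.0200) and for feature 17706 (−0.46). Dnmt1 changed sign relative to its chromosome (−0.14, not called in either setting). The 4 members called lower became 2 to 3 when 1 array was left out, and the 1 called higher stayed at 1. Over all genes, 4140 were higher and 4275 lower. With 1 array left out these counts ran from 2532 to 2860 and from 2879 to 3005. With pairs 1+2 and 3+4 averaged 2690 were higher and 2923 lower, with pairs 1+4 and 2+3 averaged 4758 and 4914, and over single features 7184 were higher and 7121 lower, since more features than genes are tested. Of the 34 related genes named by the rule, 18 kept their call in every alternative and 16 lost it in at least 1, none of them turning direction. Except for the larger number of features, the causes were not tested. Each ratio already pairs the genotypes within its array, and no block by replicate number was fitted beyond that. With array pairs 1+2 and 3+4 as a random block and no dye term (consensus correlation −0.0367), 3964 genes were higher and 4110 lower, and none of the 8 genes gained or lost a call. Leaving out an array leaves 1 residual degree of freedom beside the dye term.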
